A study of Mus musculus with 6 samples.

Results

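The replication-dependent histone genes were examined in sorted fetal liver cells with and without the -77 element. They were taken as every row of the deposited gene table whose symbol begins with Hist1, Hist2, Hist3 or Hist4, which gave 64 of 19436 genes. By histone type these were 5 H1, 16 H2A, 18 H2B, 13 H3 and 12 H4 genes. By cluster they were 50 Hist1, 10 Hist2, 3 Hist3 and 1 Hist4 gene, and the RefSeq entries that matched lay on mouse chromosomes 13, 3, 11 and 6 respectively. Hist1h2aj and Hist3h2bb-ps are annotated as pseudogenes, and the symbol Hist2h3c1 stood on 2 rows with different Ensembl IDs. In the GENCODE M21 annotation used below, the ID of Hist2h2bb is named Gm42743 and the Hist2h3c1 ID ENSMUSG00000070392 is named Gm20634. Neither has an annotated stop codon there.

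Both genotypes were of strain C57BL/6 and were taken at embryonic day 14.5. Cells with intermediate CD71, the transferrin receptor, and without Ter119, a surface protein of maturing red cells, were sorted in a gate called R1. Wild type and -77-/- each had 3 libraries, made from 10 ng of total RNA; the labels do not say if separate embryos were used, so p-values here measure only the scatter of these libraries, which may be technical. The -77 element is a distal enhancer of Gata2, a transcription factor gene of blood stem and progenitor cells, and both alleles lack it in -77-/-. Gata2 itself had 127.6, 87.8 and 61.5 normalized reads in wild type and 74.2, 26.2 and 34.2 in -77-/-, so the genotypes overlapped (limma adjusted p = 0.183). Values are always given in the order of replicates 1, 2 and 3 of a genotype.

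Dividing DNA needs new nucleosomes. H2A, H2B, H3 and H4 form the core around which DNA is wrapped, and H1 binds the linker DNA between cores. The clustered genes are transcribed mainly in S phase, and most of their messages end in a stem-loop instead of a poly(A) tail. The stem-loop-binding protein SLBP holds that structure through processing, translation and decay. Erythroid precursors divide rapidly before their nuclei condense.

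The stem-loop is shown first because it is the hallmark of these messages. It was searched in the GENCODE M21 transcripts of all 64 genes as a stem of 6 base pairs beginning GG around a loop of 4 bases beginning TTT, and was found in 43. Capitals mark the 16 bases of stem, loop and stem, and 1 gene stands for each of the 6 variants.
Hist1h1c: aaaaGGCTCTTTTCAGAGCCaccact
Hist1h2bk: caaaGGCTCTTTTAAGAGCCactaaa
Hist2h2ac: aaaaGGCTCTTTTTAGAGCCaccaaa
Hist4h4: caaaGGCCCTTTTCAGGGCCcacaaa
Hist1h4i: taaaGGCCCTTTTTAGGGCCaccaca
Hist1h4j: taaaGGTCCTTTTCAGGACCaccaca

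The first variant was held by 27 genes of the H1, H2A, H2B and H3 types, the second by 2 H2B and 3 H3 genes, and the third by Hist2h2ac. The other variants were found in H4 genes, with 6, 2 and 2 members, and no H4 gene held the first 3. Among the genes described below, Hist1h3a held the first variant and Hist1h3f the second. In the annotated transcripts of Hist1h1a and Hist1h1b these letters were not found. For 15 of the 21 genes without a match, the annotation holds under 50 bases after the stop codon or no coding sequence, so a stem-loop past the annotated end would not be seen.

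Promoter windows were read because the H1 genes differed among themselves in the data, and because H2A and H2B genes share windows. RefSeq windows of 300 bases, 250 before and 50 after a gene's start, matched 52 of the 64 members (build GRCm38.p6). The stretches printed here are the 250 bases before the starts of Hist1h1a (chr13:23763418-23763667, plus strand) and Hist1h1c (chr13:23738557-23738806, plus strand). The third is the 177 bases between the starts of Hist1h2ah and Hist1h2bk (chr13:22035644-22035820, plus strand), which run in opposite directions. Capitals mark matches on either strand to the TATA box TATAAA, to the CCAAT box, to the octamer ATGCAAAT and to the H1 box AAACACA.
Hist1h1a: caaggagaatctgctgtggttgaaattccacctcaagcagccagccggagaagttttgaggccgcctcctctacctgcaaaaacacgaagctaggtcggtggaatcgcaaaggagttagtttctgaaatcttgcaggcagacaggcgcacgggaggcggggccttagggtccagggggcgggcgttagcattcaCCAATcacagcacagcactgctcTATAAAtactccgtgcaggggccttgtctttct
Hist1h1c: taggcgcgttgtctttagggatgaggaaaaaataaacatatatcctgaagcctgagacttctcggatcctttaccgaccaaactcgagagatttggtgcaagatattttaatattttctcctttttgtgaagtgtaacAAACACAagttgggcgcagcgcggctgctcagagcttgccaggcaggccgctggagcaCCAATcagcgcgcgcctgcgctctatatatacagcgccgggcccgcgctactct
Hist1h2bk: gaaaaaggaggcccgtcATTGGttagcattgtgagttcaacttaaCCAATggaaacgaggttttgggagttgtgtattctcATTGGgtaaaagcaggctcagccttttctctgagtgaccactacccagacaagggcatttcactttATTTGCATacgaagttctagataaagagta

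CCAAT, on either strand, was present in all matched windows of H1 (5), H2A (12), H2B (14) and H3 (10), in 3 of 11 H4 windows, and in 37.4% of 32851 RefSeq promoter windows. TATAAA was present in 29 of the 52 windows (55.8%), against 13.6% of all windows. The octamer, a site of POU-domain factors, was found in 6 of 12 H2A and 5 of 14 H2B windows and in none of the others, against 1.74% of all windows. AAACACA was found in 4 of 5 H1 windows, all but that of Hist1h1a, and in 7.18% of all windows. Only exact letters were searched, and the Hist1h1a stretch printed above holds AAACACG, which differs in the last base. The part of these letters in the fold changes was not tested. A form of the E2F site, TTCCCGC, was found in 5 of 11 H4 windows and 1 H2B window, against 4.60% of all windows; TTTGGCGC was found in no member window and in 0.514% of all. Matches to different motifs overlapped in 0 of the member windows, and a match is a description of the window only. In 7 instances an H2A and an H2B gene on opposite strands had windows that overlapped, by 252 to 279 bases.

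The libraries held 16516338 to 20468899 reads. A normalized read here is the authors' read count divided by a size factor for the library, which ran from 0.878 to 1.17. Each log2 fold change compares -77-/- with wild type after 1 was added to every value, and a gene is called changed when limma's adjusted p, over 15821 tested genes, was under 0.05. The 2 genotypes differed widely outside the histone genes. Of 15 erythroid markers 13 were called lower in -77-/-, with sums of 54443 to 57843 in wild type and 3649 to 8962 in -77-/-. Of 14 monocyte and macrophage markers all were called higher, with sums of 2190 to 3503 and 35710 to 47401. The label of erythroid precursor therefore rested on far fewer erythroid transcripts in -77-/- than in wild type, and no marker of either list was at 0 throughout a genotype. The part of these differences in the histone results was not tested, and in bulk RNA fewer cells of a type and less RNA per cell cannot be told apart.

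Few histone genes were called beside that background. Of the 63 members that passed the filter on low values, 0 were called higher and 3 lower (4.76%): Hist1h1a, Hist1h3f and Hist1h3a. Over all tested genes 32.2% were called, 2681 higher (16.9%) and 2410 lower (15.2%), or 2667 and 1440 when values were rescaled to the upper quartile. Among the 5999 genes whose mean lay between the quartiles of the members, 36.6% were called. At an unadjusted limma p under 0.05 there were 0 members higher and 4 lower (6.35%), against 42.0% of all genes. Recovered reads gave 0 higher and 3 lower with each of edgeR, DESeq2 and limma-voom. With limma-voom these were the same 3 genes, but with edgeR and DESeq2 Hist1h2ai stood in place of Hist1h3a. The authors' deposited table held 0 higher and 4 lower of 62 members with an adjusted p, against 31.1% of all its genes. Libraries of the 2 genotypes did not overlap for 4 members, all lower (6.35%), against 46.5% of all genes. The gene outside the filter, Hist1h2aj, had 3.89 normalized reads in -77-/- 2 and 0 in the other libraries.

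The median log2 fold change of the 63 members was -0.16, against 0.10 over all tested genes, and 41 members lay below 0 and 22 above. With single libraries omitted the members' median ran from -0.22, without -77-/- 1, to -0.02, without -77-/- 3. By type the medians were -0.10 for H1, -0.26 for H2A, 0.03 for H2B, -0.26 for H3 and -0.22 for H4. Precision differed between types and limits what a missing call says. The 95% interval of the log2 fold change lay within -1 and 1, that is within a 2-fold change either way, for 25 members (39.7%), against 30.8% of all genes. That held for 4 of 5 H1 and 13 of 15 H2A genes tested, but for 2 of 18 H2B, 4 of 13 H3 and 2 of 12 H4 genes. The member and H2A counts hold both rows of each H2A pair with the same value in every library, described below. The intervals of the other H2B, H3 and H4 genes reached past a 2-fold change.

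**Figure D1:**
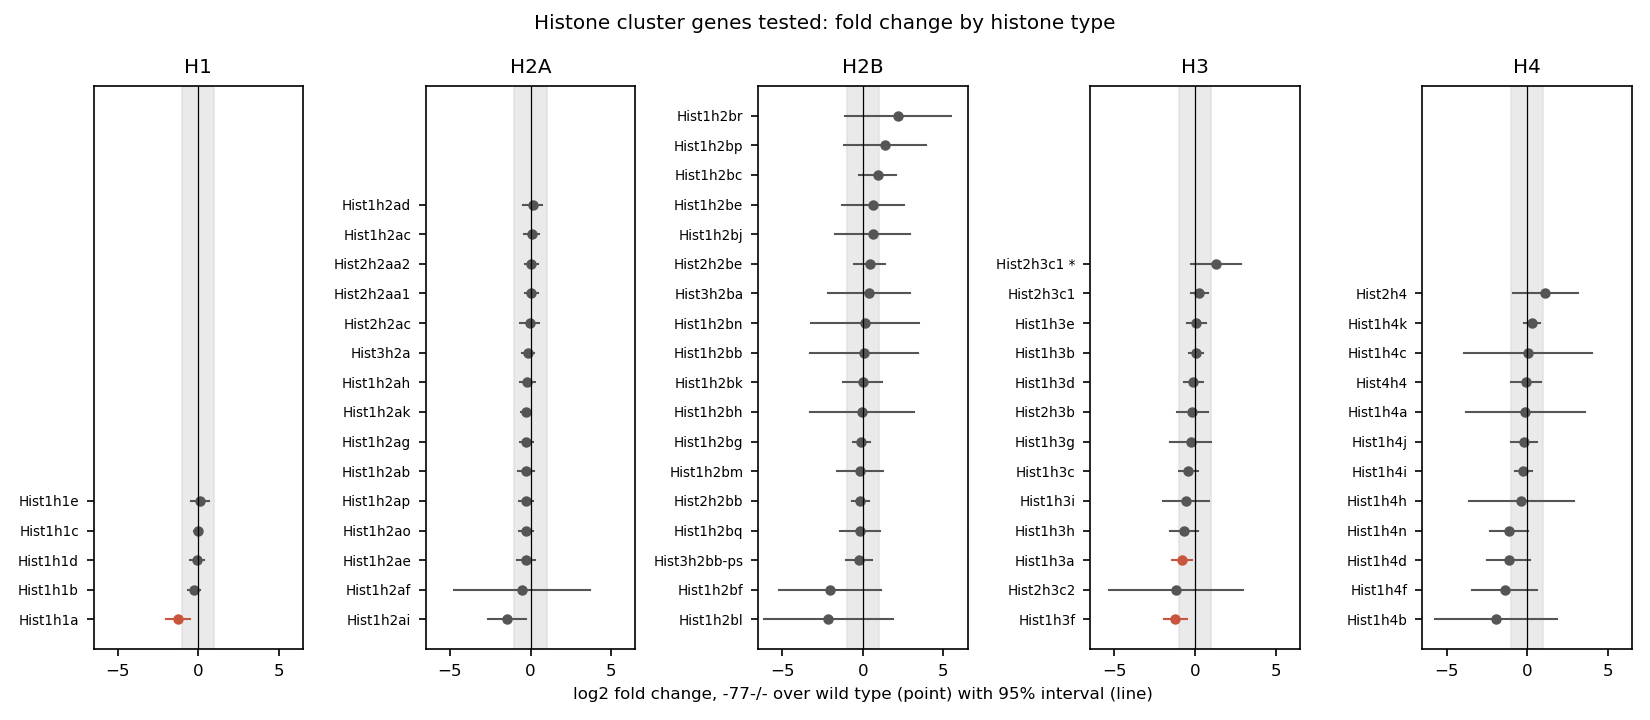
Log2 fold change, -77-/- over wild type, on the horizontal axis for each of the 63 tested members, in a panel per histone type; points are estimates, lines 95% intervals, the grey band marks -1 to 1, red marks the 3 genes called lower, and the asterisk marks the Hist2h3c1 row ENSMUSG00000070392. The intervals of 4 of 5 H1 and 13 of 15 H2A genes stay inside the band, against 2 of 18 H2B, 4 of 13 H3 and 2 of 12 H4 genes.

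Near-identical copies can exchange reads in the authors' counting, so values were also summed. How reads matching several genes were counted is not given. If identical rows hold the same reads, a sum counts those reads again. Hist1h2ao and Hist1h2ap, with the same value in every library, together had a mean of 9861 in wild type and 7885 in -77-/- within the H2A sum. The 64 genes together held 38742, 44248 and 47900 normalized reads in wild type and 42919, 38733 and 35849 in -77-/-, or 0.205% to 0.254% of a library's total. The genotypes overlapped, with 43630 ± 4611 in wild type and 39167 ± 3555 in -77-/- (SD, n = 3), a ratio of 0.898. Sums by type overlapped as well in each of the 5 types. The H1 sum was 11994 ± 1782 in wild type and 11292 ± 556 in -77-/-, and the H2A sum was 20988 ± 4520 and 17851 ± 1289. For H2B it was 4871 ± 1702 and 5047 ± 1702, for H3 3886 ± 612 and 3383 ± 403, and for H4 1891 ± 216 and 1593 ± 290.

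**Figure D2:**
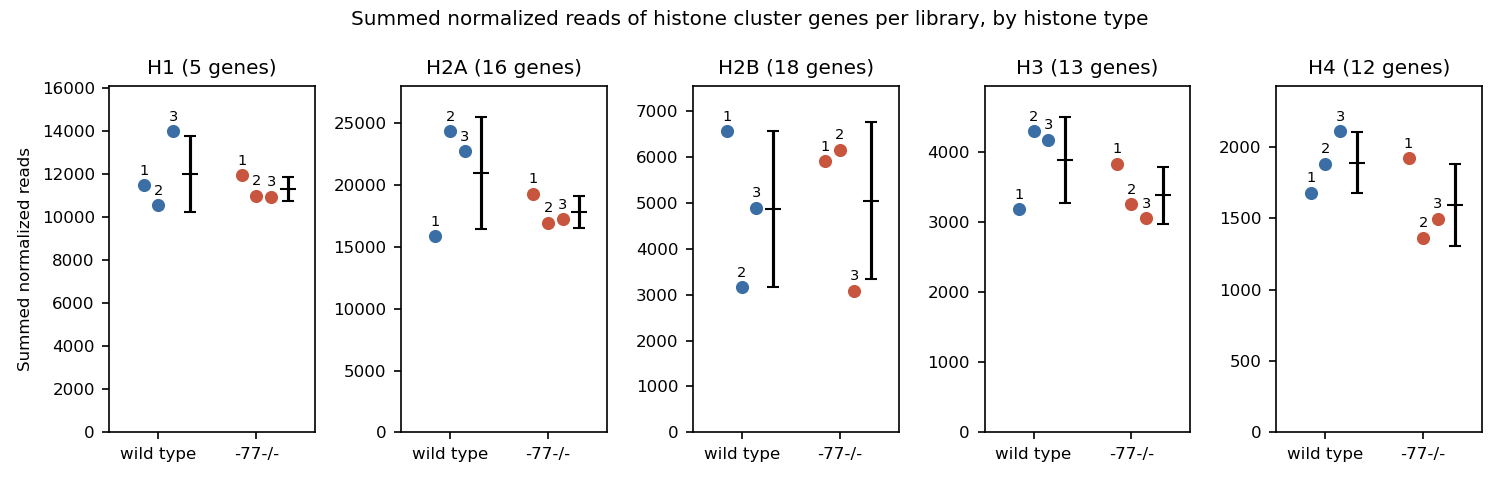
Summed normalized reads (vertical axis, from 0, on its own scale in each panel) of the H1, H2A, H2B, H3 and H4 genes in each library; points are libraries with their replicate number and bars are the mean ± SD of 3. The genotypes overlap in every panel, and the H2B sum is lowest in wild type 2 and -77-/- 3.

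The H1 genes encode the linker histones, and their fold changes had a median SE of 0.20. Hist1h1a (ENSMUSG00000049539), which encodes the H1 subtype H1.1, had 227.0, 202.6 and 266.7 normalized reads in wild type and 99.6, 104.0 and 84.5 in -77-/-. All 3 -77-/- libraries were below all 3 wild type libraries. It fell by 1.26 on the log2 scale (SE 0.34, 95% interval -1.98 to -0.54, limma adjusted p = 0.0098). The call was kept under each of the 15 alternatives run, with adjusted p between 0.0039 and 0.041. As a share of the H1 sum, Hist1h1a made up 1.94% ± 0.039 of reads in wild type and 0.851% ± 0.088 in -77-/- (SD, n = 3).

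The other 4 H1 genes were not called. Hist1h1c, which encodes H1.2, had 5319, 6164 and 6414 normalized reads in wild type and 6869, 5493 and 5347 in -77-/-, with a log2 fold change of -0.02 and a 95% interval of -0.27 to 0.23. The lowest value was in wild type 1 and the highest in -77-/- 1. Hist1h1b, which encodes H1.5, had 1571, 1339 and 2178 against 1260, 1411 and 1440 (log2 fold change -0.28, limma adjusted p = 0.22). Hist1h1d, encoding H1.3, had 1871, 1640 and 3018 against 1819, 1953 and 2122, and Hist1h1e, encoding H1.4, had 2477, 1190 and 2106 against 1886, 2033 and 1955. For both, the -77-/- libraries lay inside the wild type range. Their log2 fold changes were -0.10 (95% interval -0.53 to 0.34) and 0.09 (-0.46 to 0.65).

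Reads of H1 genes were also the easiest to place. Of the 50-base words in each gene's transcripts, the length of the reads, the median share found in no other gene was 97.8% for H1, against 15.5% for H2A, 56.0% for H2B, 36.5% for H3 and 65.8% for H4. Hist1h1a had 100%, and Hist1h3f and Hist1h3a had 50.7% and 50.5%. Over all 64 members the median was 48.1%, with 32 genes at 50% or more, 4 at 0% and 3 at 100%. The 3 calls lay among the 32 genes at 50% or more (9.38%), and limma called 0 of the 31 tested genes below, against 32.2% of all tested genes. Below the cut 1 gene had an unadjusted limma p under 0.05. The cut was chosen after seeing the data, and Hist1h3f and Hist1h3a lay just over it, so this division depends on the cut.

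**Figure D3:**
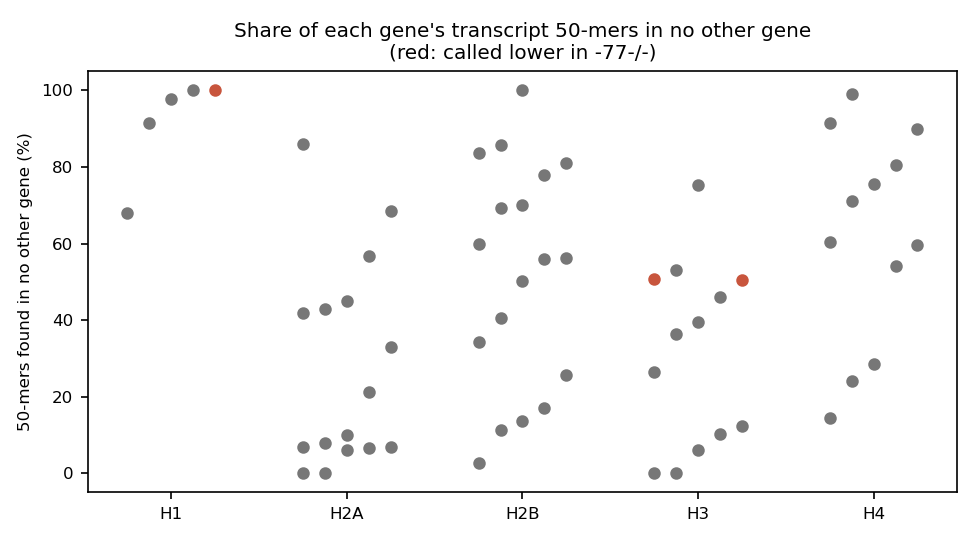
Share of each member's 50-base words that occur in the transcripts of no other gene (vertical axis, %), by histone type; each point is 1 of the 64 genes, spread sideways for legibility, and red marks the 3 genes called lower. H1 genes lie at 68% or above, and the 2 called H3 genes lie just over 50%.

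The H2A genes encode one partner of the H2A-H2B dimer. None of the 15 tested was called by limma; at an unadjusted limma p under 0.05 there was 1, and edgeR and DESeq2 each called that gene, Hist1h2ai, lower. Hist1h2ai had 57.2, 193.6 and 250.7 normalized reads in wild type and 51.9, 50.6 and 48.7 in -77-/-, and was named after its values were seen. The genotypes did not overlap, though wild type 1 lay close to the -77-/- libraries. The estimate was -1.47 on the log2 scale with an SE of 0.56 and a limma adjusted p of 0.059, or 0.0076 to 0.194 over the alternatives. Of its 50-base words 9.88% occurred in no other gene. In the authors' deposited table it had a log2 fold change of -1.73 with an adjusted p of 0.011.

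The H2A genes that drew the most reads, not corrected for length, were not called. Hist1h2ao and Hist1h2ap carried the same value in every library, 3415, 5594 and 5782 in wild type and 4290, 3861 and 3676 in -77-/-, and count as 1 measurement. Their log2 fold change was -0.29 (95% interval -0.70 to 0.13, limma adjusted p = 0.274); without wild type 1, the lowest library, it was -0.53 with an adjusted p of 0.0054. Hist3h2a had 1784, 2511 and 1519 against 1862, 1686 and 1599, a log2 fold change of -0.15 (95% interval -0.50 to 0.21). Hist1h2ak had 1158, 1357 and 1303 against 1042, 961 and 1199, a log2 fold change of -0.26 (95% interval -0.57 to 0.06). In both the libraries of the 2 genotypes overlapped. Hist2h2aa1 and Hist2h2aa2 were a second identical pair, and the other tested H2A genes except Hist1h2af lay between -0.30 and 0.14.

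H2B genes, which encode the other partner of the dimer, gave 0 calls among 18 tested and 0 at an unadjusted limma p under 0.05; edgeR, DESeq2 and limma-voom called 0 as well. Hist1h2bk had 2467, 1224 and 1851 normalized reads in wild type and 2496, 2239 and 1011 in -77-/-, with a log2 fold change of 0.01 (95% interval -1.21 to 1.22). Hist1h2bg had 894, 489 and 631 against 677, 756 and 450, a log2 fold change of -0.09 (95% interval -0.62 to 0.44). Both were lowest in wild type 2 and -77-/- 3. Hist2h2bb had 575, 348 and 332 against 344, 368 and 376, a log2 fold change of -0.16 (95% interval -0.69 to 0.37), and its highest value was in wild type 1. Hist1h2bc had 555, 228 and 228 against 757, 838 and 315, a difference of 0.93 on the log2 scale (SE 0.49), with a limma adjusted p of 0.201. It was called higher without wild type 1 (adjusted p = 0.023) or without -77-/- 3 (0.016), and the genotypes overlapped.

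H2B values varied with the library in both genotypes, a pattern seen in the values before it was counted. The H2B sum was 6560, 3156 and 4896 in wild type and 5902, 6153 and 3087 in -77-/-. In 8 of 18 H2B genes, among them Hist1h2bb, Hist1h2bj and Hist1h2bn, wild type 2 and -77-/- 3 were the 2 lowest libraries, against 2.45% of all tested genes and 0 of the H1, H2A, H3 and H4 genes. Hist1h2bb had 454, 49.9 and 624 in wild type and 384, 399 and 103 in -77-/-. Hist1h2bn had 264, 20.0 and 312 against 234, 194 and 47.0. The H2A sums of these libraries were 24374, the highest of the 6, and 17258, above those of wild type 1 (15855) and -77-/- 2 (16965). This split crossed the genotypes, and the median SE of the log2 fold change was 0.92 for H2B genes against 0.21 for H2A genes and 0.35 for all genes.

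**Figure D4:**
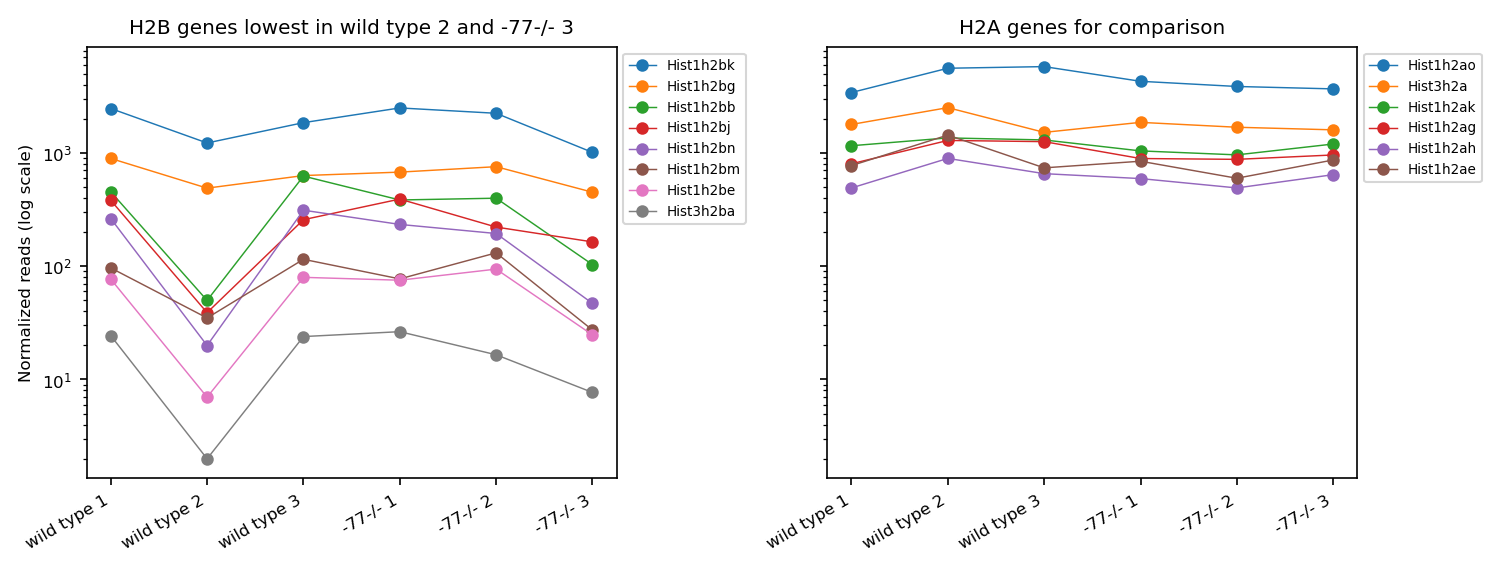
Normalized reads (vertical log axis) per library for the 8 H2B genes lowest in wild type 2 and -77-/- 3 (left) and, for comparison, 6 H2A genes (right); lines join the values of a gene. The H2B genes were chosen for their low values in wild type 2 and -77-/- 3, so their lines dip there. None of the H2A genes has these as its 2 lowest libraries, though Hist1h2ao and Hist3h2a are lowest in -77-/- 3 within that genotype.

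The H3 genes encode a core histone whose tail carries many of the known chromatin marks, and they supplied the other calls. Hist1h3f (ENSMUSG00000059309) had 236, 307 and 424 normalized reads in wild type and 131, 183 and 99.9 in -77-/-, without overlap. It fell by 1.22 on the log2 scale (SE 0.33, 95% interval -1.94 to -0.51, limma adjusted p = 0.011). Without -77-/- 3, the lowest library, the log2 fold change was -1.01 and the adjusted p 0.057. Its share of the H3 sum was 8.24% ± 1.66 in wild type and 4.10% ± 1.31 in -77-/- (SD, n = 3).

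Hist1h3a (ENSMUSG00000069265) had 274, 324 and 219 normalized reads in wild type and 135, 161 and 162 in -77-/-, again without overlap. It fell by 0.81 on the log2 scale (SE 0.30, 95% interval -1.45 to -0.18), with a limma adjusted p of 0.0487 at the edge of the threshold. The call ended with edgeR (0.0596) and DESeq2 (0.0518), under both rescalings (0.0807 and 0.156), with no filter (0.0667) and without 5 of the 6 libraries in turn, with a range of 0.023 to 0.163 over the alternatives. The call was kept with limma-voom (0.0494), with both other pseudocounts, with a filter of 50 (0.0361) and without wild type 3 (0.023). The log2 fold change stayed between -0.68 and -0.96 in each of these fits. In the authors' deposited table it was -0.83, with an adjusted p of 0.0455.

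The other 11 H3 rows were not called. Hist1h3b had 803, 1216 and 1124 normalized reads in wild type and 1350, 1077 and 816 in -77-/-, a log2 fold change of 0.04 (95% interval -0.40 to 0.47). Hist1h3c had 493, 750 and 376 against 313, 340 and 544, a log2 fold change of -0.42 (95% interval -1.02 to 0.18), and Hist1h3d had 232, 368 and 327 against 247, 328 and 282. The genotypes overlapped in all 3 genes. The 2 rows named Hist2h3c1 differed: ENSMUSG00000093769 had 284, 351 and 552 against 522, 426 and 439, and ENSMUSG00000070392 had 20.6, 31.9 and 80.9 against 241.0, 38.9 and 88.8. Neither was called (limma adjusted p = 0.437 and 0.194), and their annotated transcripts share 50-base words, so the division of reads between them is uncertain.

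**Figure D5:**
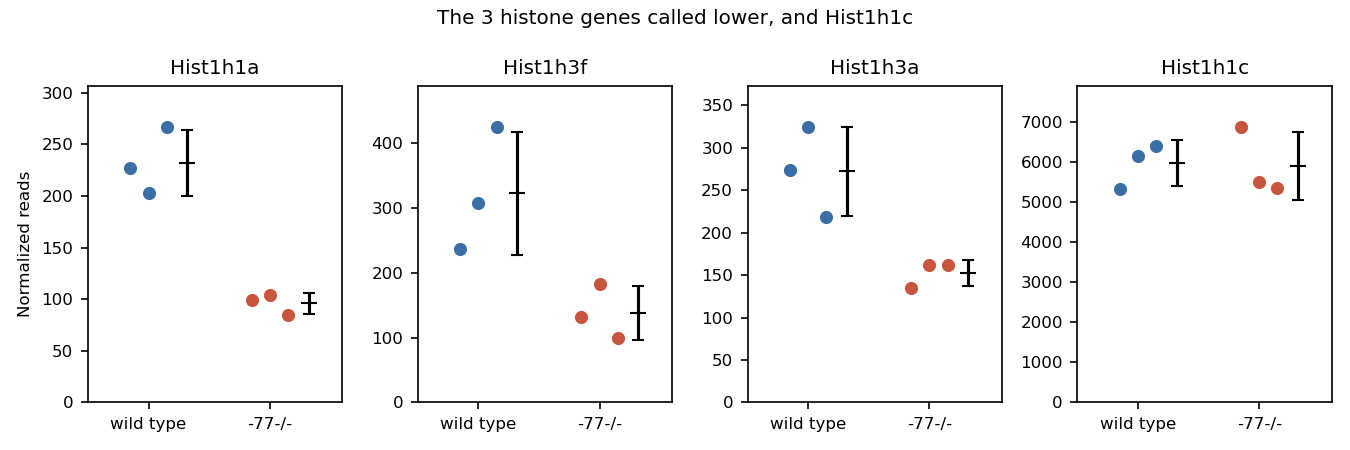
Normalized reads (vertical axis, from 0) of the 3 genes called lower and of Hist1h1c in each library; blue points are wild type, red points -77-/-, and bars the mean ± SD of 3. The genotypes do not overlap for Hist1h1a, Hist1h3f and Hist1h3a, and overlap for Hist1h1c.

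H4 genes all encode the same core histone. None of the 12 was called, with 0 at an unadjusted limma p under 0.05 and 0 calls by edgeR, DESeq2 or limma-voom. Hist1h4k had 462, 374 and 640 normalized reads in wild type and 646, 481 and 637 in -77-/-, a log2 fold change of 0.28 (95% interval -0.21 to 0.77). Hist1h4i had 373, 480 and 352 against 406, 245 and 388, a log2 fold change of -0.24 (95% interval -0.78 to 0.31). Hist1h4j had 175, 187 and 361 against 295, 216 and 119.5, and Hist1h4n had 268, 120 and 428 against 224, 73.9 and 77.7. In all 4 the genotypes overlapped. The log2 fold change of Hist1h4n was -1.13 (limma adjusted p = 0.129), and it was called lower without -77-/- 1 (0.029) or without wild type 2 (0.023). Hist1h4c, at 126, 297 and 3.42 against 123, 40.8 and 34.2, was uneven within wild type and was called lower without wild type 3 (log2 fold change -1.78, adjusted p = 0.037).

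Histone messages depend on their own transcription and 3' end machinery. Of 48 tested genes for histone mRNA transcription and processing 12 were called lower and 1 higher (27.1%). Among all tested genes 32.2% were called, 15.2% lower and 16.9% higher. The median log2 fold change of the 48 genes was -0.28. After rescaling to the upper quartile 6 were called lower. Slbp, whose protein binds the stem-loop, had 5209, 5929 and 5109 normalized reads in wild type and 4050, 4192 and 4414 in -77-/-, and fell by 0.36 on the log2 scale (limma adjusted p = 0.015). That call ended under both rescalings, at -0.27 and -0.23, and without -77-/- 1 or wild type 2. Cpsf2, encoding a subunit of the complex that cleaves the message, fell by 0.92 from 5412 ± 395 to 2873 ± 260 (SD, n = 3, limma adjusted p = 1.4e-05). Snrpg, Snrpf and Lsm3, which encode proteins of Sm and Lsm rings, fell, with log2 fold changes of -1.29, -1.06 and -1.11. Srrt, encoding the cap-complex partner ARS2, fell by 0.44. Nfya, encoding a subunit of the factor that binds CCAAT, rose by 0.50 (limma adjusted p = 0.0057), while Nfyb, encoding a partner subunit, fell by 0.44; both were named after their values were seen. Npat, which encodes the cyclin E-CDK2 substrate of histone loci, had 1352, 1231 and 1132 against 1074, 882 and 1043 and was not called (limma adjusted p = 0.127).

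Histone chaperones carry newly made histones to DNA. Of 27 tested 7 were called lower and 0 higher (25.9%), against 32.2% of all tested genes (15.2% lower and 16.9% higher). Their median log2 fold change was -0.24. At an unadjusted limma p under 0.05 there were 14 lower and 0 higher. Among all genes that share was 42.0% in either direction, with 3078 lower and 3564 higher. After rescaling to the upper quartile 4 were called lower, and after rescaling to the library total 2 were called higher. Asf1a, encoding an H3-H4 chaperone, fell by 0.81 from 1607 ± 90.1 to 920.1 ± 94.8 (SD, n = 3, limma adjusted p = 0.00043). Cdan1, encoding codanin-1, a partner of ASF1 linked to congenital dyserythropoietic anaemia, fell by 1.09 from 1125 ± 80.6 to 534.8 ± 96.9 (limma adjusted p = 0.00026). Ipo4, encoding an importin for H3-H4, fell by 0.77, and Npm1, encoding nucleophosmin, fell by 0.76. Nap1l1, encoding an H2A-H2B chaperone, fell by 0.28 (limma adjusted p = 0.036), a call that ended with edgeR and under both rescalings. Set, which encodes a chaperone of the same family, was not called (log2 fold change -0.23, limma adjusted p = 0.097).

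Of 60 S phase genes 16 were called lower and 2 higher (30%), against 32.2% of all tested genes (15.2% lower and 16.9% higher). Their median log2 fold change was -0.16. After rescaling to the upper quartile 5 were called lower, and after rescaling to the library total 5 were called higher. Ccne1, encoding cyclin E1, had 2486, 2976 and 2750 normalized reads in wild type and 1037, 687 and 1058 in -77-/-, and fell by 1.58 (SE 0.17, limma adjusted p = 3.2e-06). Orc6, encoding a subunit of the origin recognition complex, fell by 0.94, and Rfc4, encoding a clamp loader subunit, by 0.81. Mki67, the proliferation antigen, fell by 0.48, a call that ended after rescaling to the upper quartile. Mcm6, a subunit of the replicative helicase, and Top2a, a topoisomerase, were not called, at -0.17 and 0.05. The repressors E2f7 and E2f8, named after their values were seen, rose by 0.70 and 0.60. The call for E2f7 ended without any 1 of 4 libraries: -77-/- 2, -77-/- 3, wild type 1 or wild type 2.

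Most replication-independent histones are made throughout the cycle from messages with poly(A) tails. Of 13 tested 1 was called higher and 0 lower (7.69%), against 32.2% of all tested genes, the same 1 and 0 as at an unadjusted limma p under 0.05; edgeR and DESeq2 called 1 higher and 0 lower as well. H2afy, encoding macroH2A1, had 2058, 1902 and 2028 normalized reads in wild type and 11115, 11889 and 11114 in -77-/-, and rose by 2.51 on the log2 scale (SE 0.10, limma adjusted p = 3.3e-10). H3f3a and H3f3b, which encode H3.3, were not called, at 0.01 (adjusted p = 0.969) and 0.16 (0.235). For H3f3a the wild type values were 9349, 8141 and 8051 and the -77-/- values 8982, 8469 and 8158.

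Since most cluster messages lack a poly(A) tail, other RNAs with short tails or none were read beside them. Mitochondrial ribosomal RNA took 9.70%, 7.95% and 7.98% of the normalized total in wild type and 7.86%, 7.20% and 6.43% in -77-/-. Rn7sk, a small nuclear RNA that holds back the elongation factor P-TEFb, had 4956, 3029 and 1473 normalized reads in wild type and 856, 901 and 835 in -77-/-. Rn7sk and, narrowly, the summed mitochondrial ribosomal RNA were lower in every -77-/- library than in every wild type library. Each mitochondrial ribosomal RNA alone overlapped. The share of mt-Rnr1 was 2.83% in wild type 2 and 2.90% in -77-/- 1, and that of mt-Rnr2 was 4.66% in wild type 3 and 4.96% in -77-/- 1. Libraries of the genotypes did not overlap for 46.5% of all tested genes. Malat1 and Neat1, nuclear RNAs whose ends form a triple helix, went the other way without overlap. Malat1 took 0.347%, 0.270% and 0.283% of the total in wild type and 0.469%, 0.644% and 0.462% in -77-/-, and Neat1 had 1301, 1024 and 1216 normalized reads against 3382, 5740 and 4703. The summed small nucleolar RNAs named Snora, at 269, 224.5 and 390 against 253, 203 and 154, overlapped, as the histone sum did. Those named Snord, at 148.2, 228.5 and 165.2 against 81.3, 101.1 and 115.3, were lower in -77-/- without overlap. The summed RNAs named Scarna had 252.4, 155.7 and 135.6 normalized reads against 132.2, 89.4 and 112.7, also lower without overlap. As shares of the total the Scarna values overlapped. Within the genotypes, the summed mitochondrial ribosomal RNA was lowest in wild type 2, nearly tied with wild type 3, and in -77-/- 3. Taken alone, mt-Rnr1 was lowest in wild type 2 (2.83%) and mt-Rnr2 in wild type 3 (4.66%), and both in -77-/- 3. The H2B sum was lowest in wild type 2 and -77-/- 3, and Rn7sk in wild type 3 and -77-/- 3. Their part in the histone values was not tested. Members with and without an annotated stem-loop were called at 2 of 43 (4.65%) and 1 of 20 (5%), against 32.2% of all tested genes. For 15 of the 21 genes without one, the annotation holds under 50 bases after the stop codon or no coding sequence. This division therefore does not part tailless messages from tailed ones.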

How the data were processed

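RNA was sequenced from 3 wild type and 3 -77-/- samples. The authors deposited a table with 1 value per gene and library, a normalized signal made by dividing read counts by a size factor; in each library 100% of values came within 0.01 of a whole read when divided by the library's step. The build was mm9 and the tools DESeq2, RSEM 1.2.31, STAR 2.5 and Bowtie, per the submitters' processing notes; their roles, the gene annotation and how reads matching several genes were handled are not given in the sources used here. Deposited log2 fold changes and adjusted p-values are the authors' and were used only where named. Of 19444 rows 8, with cells moved sideways, were left out.

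The test was limma 3.58.1 (R 4.3.3; trend, robust) on log2(value + 1) over genes with a mean of at least 10 in the higher genotype, with Benjamini-Hochberg adjustment at 0.05; it was checked on simulated data. A count model was not the main test because the values were normalized. Alternatives used pseudocounts of 0.1 and 10, no filter, a filter of 50, rescaling to the library total or upper quartile, recovered reads in edgeR 4.0.16, DESeq2 1.42.0 and limma-voom, and each library left out. Reads were not corrected for length. Recovered reads may be rounded estimates.

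The members and lists were chosen with earlier results of these data known. Named members were all H1 genes, the 4 with the highest mean in each other type, and up to 2 of the highest and 2 of the lowest fold changes among those called; in lists, the 3 with the highest mean and up to 3 with the largest called change. Transcripts were from GENCODE M21 (52 members matched by ID, 12 by symbol) and promoters from RefSeq GRCm38.p6; coordinates of the authors' build were not used.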

Additional observations from a re-analysis of the deposited data

How the results depend on the processing

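Of the 48 genes followed through the alternatives, the fits that left a gene's direction and side of the threshold as they were numbered 647; 32 ended a call, 11 made one and 30 turned a direction. Each reversal concerned a gene that was not called in either fit. The cause was not tested for any of these changes. Rescaling to the upper quartile moved the median of all genes from 0.10 to 0.22 and that of the members from -0.16 to -0.03, and to the library total to 0.18 and -0.07. At the upper quartile 1440 of all genes were lower, as were 6 processing, 4 chaperone and 5 S phase genes. At the library total 2 chaperone, 5 S phase and 2 replication-independent genes were higher. With single libraries omitted there were 0 to 1 members higher (1 without wild type 1 and 1 without -77-/- 3), 1 to 7 members lower (7 without wild type 1, 1 without -77-/- 3) and 1 to 3 S phase genes higher. The log2 ratio of the summed members, -0.16, then ran from -0.23 to -0.08. Among members with at least 50% of their 50-base words in no other gene, or with identical genes counted once, 3 were lower and 0 higher. Both sets were chosen after seeing the data and were counted in the same fit. Each holds all 3 called genes, so these counts could not differ and test nothing.

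The reversed log2 fold changes were as follows. Upper quartile: Hist1h1c 0.11, Hist1h1d 0.0295, Hist1h2bg 0.0415 and Hist1h3d 0.0313. Library total: Hist1h1c 0.0664. Limma-voom: Hist1h2bk -0.0259 and H3f3a -0.00052. The range over single libraries left out crossed 0 for Hist1h1c (-0.13 to 0.0468), Hist1h1d (-0.28 to 0.16), Hist1h1e (-0.22 to 0.31), Hist3h2a (-0.31 to 0.0564), Hist1h2bk (-0.26 to 0.41), Hist1h2bg (-0.29 to 0.14), Hist2h2bb (-0.30 to 0.0922), Hist1h3b (-0.14 to 0.23), Hist1h3d (-0.29 to 0.0426), Hist1h4j (-0.50 to 0.15), Top2a (-0.0021 to 0.10) and H3f3a (-0.0325 to 0.0753).

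No paired analysis was possible because the labels give no replicate number, litter or batch shared by the genotypes. H4 and H2B members had median means of 83.3 and 115.6 normalized reads, against 230.2 for all genes, and median SEs of 0.78 and 0.92; the part of depth in these errors was not tested.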

Other observations

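Adjacent H2A and H2B genes with overlapping promoter windows did not keep a fixed ratio of normalized reads across libraries. Many of their 50-base words occur in other genes. For Hist1h2ah and Hist1h2bk only 7.87% and 25.8% occur in no other gene. The part of the division of shared reads in these ratios was not tested. Hist1h2bk over Hist1h2ah, the pair whose shared stretch is printed above, was 5.03, 1.37 and 2.82 in wild type and 4.20, 4.56 and 1.57 in -77-/-. Hist1h2bg over Hist1h2ae was 1.16, 0.34 and 0.85 against 0.80, 1.26 and 0.52. Hist1h2bn over Hist1h2ak was 0.23, 0.015 and 0.24 against 0.22, 0.20 and 0.039. Hist1h2bj over Hist1h2ag was 0.48, 0.030 and 0.20 against 0.44, 0.25 and 0.17. In these 4 pairs the ratio was lowest in wild type 2 and -77-/- 3 within each genotype, and the genotypes overlapped; the H2B genes of all 4 are among those already seen to be low there. The other 3 of the 7 pairs did not follow it. Hist1h2bf over Hist1h2ad was lowest in wild type 2 and -77-/- 2, and Hist1h2bl over Hist1h2ai and Hist1h2bq over Hist1h2ao were lowest in wild type 3 and -77-/- 1. Over the whole types, the H2B sum over the H2A sum was 0.414, 0.130 and 0.215 in wild type and 0.305, 0.363 and 0.179 in -77-/-. The pattern was noticed before it was counted.

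Some rows cannot be read as separate genes. Hist1h2ao and Hist1h2ap, and Hist2h2aa1 and Hist2h2aa2, had the same value in every library. Hist1h2bq and Hist1h2br had the same value in 5 libraries and differed in wild type 1, with 139.8 for Hist1h2bq and 0 for Hist1h2br. The 64 rows held 62 distinct sets of values.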
